A study of Mus musculus with 24 samples.

Results

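St3gal6 and 6 related sialyltransferase genes (St3gal1, St3gal2, St3gal3, St3gal4, St3gal5 and St6gal1) were followed through bulk RNA of tissue labelled as brown adipose tissue (BAT). They were found by gene symbol, and all 7 were among the 12615 genes counted and passed the filter on low counts. St3gal6 was selected on its own levels in these libraries, which were much higher under the BATdKO label at 8°C and lower in the cold, so its levels and fold changes are described without a test. The other 6 genes were chosen as relatives of St3gal6 and were tested.

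The 24 libraries form 4 groups of 6 mice, made up of the labelled genotypes Cre- and BATdKO at 30°C and at 8°C. All mice carried floxed alleles of TBLR1 (Tbl1xr1) and TBL1 (Tbl1x), the controls included, and BATdKO mice in addition carried Ucp1CreERT2, a Cre recombinase that acts only with tamoxifen and is driven by the promoter of Ucp1, the uncoupling protein of brown adipocytes. Deletion is therefore meant for cells that use the Ucp1 promoter, while other cells of the tissue keep both genes. The labels describe female mice raised at 22°C, tamoxifen in both genotypes and a wait of 3 weeks, and then either 4 days at 30°C or 6 days at 8°C after single days at 18°C, 16°C and 12°C. They give the age at injection as 5 years, where the study's methods give weeks, and the methods also differ on sex and on the days in the cold. The study's text names no BATdKO group at 30°C for its sequencing and gives fewer mice a group than the labels. Groups here rest on the genotype and temperature in the labels.

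Sialyltransferases are enzymes of the Golgi that place sialic acid at the ends of sugar chains on proteins and lipids. The charged ends they make shape how glycoproteins and gangliosides are recognised and how long plasma glycoproteins circulate. Members of the ST3GAL family attach sialic acid to galactose, each with its own preferred acceptor. St3gal1 and St3gal2 act mainly on the galactose of O-glycans and, for St3gal2, of gangliosides. St3gal3, St3gal4 and St3gal6 act on the lactosamine ends found on N-glycans, and St3gal4 and St3gal6 take part in making sialyl Lewis X, the ligand of selectins. St3gal5 encodes GM3 synthase, which makes the first ganglioside of most others. St6gal1 uses the same lactosamine ends as St3gal6 but attaches sialic acid through another carbon of galactose.

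Several facts about the libraries bear on every value below. Depth ran from 699703 to 11527643 counts, with a median of 6644364.5, and the shallowest library was mouse m4 labelled Cre- at 30°C. Brown adipocyte markers were present, with 10 of 10 counted and a summed level of 665 to 5710 CPM (counts scaled to library size). Hepatocyte markers, of which 8 of 8 were counted, summed to 30463 to 44961 CPM, and exceeded the brown adipocyte sum in 24 of 24 libraries, by 6.09-fold to 58.2-fold. Albumin (Alb) had between 5686 and 14393 CPM and Ucp1 between 28.9 and 2076 CPM. The part of this hepatocyte signal in the levels of the sialyltransferases was not tested.

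At 8°C both genes meant to be deleted were higher, not lower, in the BATdKO libraries. Tbl1xr1 had 33.7, 39.5 and 44.3 CPM (lowest, median and highest) under the BATdKO label at 8°C and 18.2, 21.0 and 24.6 CPM under the Cre- label. The log2 fold change of Tbl1xr1 was 0.92 (SE 0.17, adjusted p = 0.00348), and that of Tbl1x was 0.39 (SE 0.10, adjusted p = 0.0633, called in 15 of the 24 fits that left out 1 mouse), both by the quasi-likelihood test of edgeR. At 30°C the groups overlapped and neither passed, with log2 fold changes of 0.44 (SE 0.17, adjusted p = 0.360 in edgeR) for Tbl1xr1 and 0.35 (SE 0.11, adjusted p = 0.205) for Tbl1x. Without both mice m6 at 30°C these were 0.80 (adjusted p = 0.000113 in edgeR) and 0.51 (adjusted p = 0.0019), and both passed. Both mice were left out after their levels of Tbl1xr1 and St3gal6 were seen, so these p-values are no independent support. A tag at the 3′ end can lie outside the deleted part, so these counts do not check the deletion, and the genotypes are given below as labelled.

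At 30°C, 2 libraries stood with the other label. Mouse m6 labelled Cre- had 38.6 CPM of Tbl1xr1 and mouse m6 labelled BATdKO had 17.0 CPM, each the reverse of its group. The same mice were reversed in St3gal6, so results at 30°C are given with and without both. Whether their labels were exchanged was not tested. The library codes in the labels run in separate series for the 2 temperatures, so that cold and anything that followed the order of the libraries cannot be told apart.

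St3gal6 (ENSMUSG00000022747) lies on the minus strand of chromosome 16 from 58468125 to 58524243 (GRCm38, GENCODE vM21), with 15 annotated transcripts. The RefSeq windows of 250 bases before to 50 bases after a start give 2 start regions for it. They are shown because the findings turn on this gene, together with the window of St3gal5, the most abundant member. Capitals mark matches on either strand to AGGTCA (a nuclear receptor half-site), TGACGTCA (the cAMP response element), CCGCCC (the GC box), TATAAA and CCAAT, and all 3 windows are from build GRCm38.p6.
St3gal6, chr16:58524204-58524503, minus strand: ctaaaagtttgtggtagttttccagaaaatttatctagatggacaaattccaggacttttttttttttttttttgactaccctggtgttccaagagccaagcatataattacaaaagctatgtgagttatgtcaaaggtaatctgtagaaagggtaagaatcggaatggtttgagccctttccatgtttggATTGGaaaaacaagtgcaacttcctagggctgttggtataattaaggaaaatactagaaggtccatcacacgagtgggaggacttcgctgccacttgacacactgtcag
St3gal6, chr16:58523377-58523676, minus strand: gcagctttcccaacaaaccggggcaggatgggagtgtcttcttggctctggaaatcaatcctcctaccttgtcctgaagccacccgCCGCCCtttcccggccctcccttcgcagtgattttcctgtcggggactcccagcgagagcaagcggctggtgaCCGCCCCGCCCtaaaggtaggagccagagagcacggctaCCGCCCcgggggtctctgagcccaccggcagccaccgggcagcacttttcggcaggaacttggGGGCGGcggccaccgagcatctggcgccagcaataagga
St3gal5, chr6:72097358-72097657, plus strand: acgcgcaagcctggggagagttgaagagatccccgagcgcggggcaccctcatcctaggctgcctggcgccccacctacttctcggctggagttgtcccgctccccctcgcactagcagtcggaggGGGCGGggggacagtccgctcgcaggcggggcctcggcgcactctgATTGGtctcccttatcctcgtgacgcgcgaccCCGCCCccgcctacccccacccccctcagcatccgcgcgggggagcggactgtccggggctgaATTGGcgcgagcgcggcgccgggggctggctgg

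The start regions of St3gal6 differed in composition. The first had 38.7% G and C and a single match, to CCAAT. The second had 64.7% G and C and 5 matches to CCGCCC, of which 1 pair shares a base. The St3gal5 window had 72.7% G and C, with 2 matches to CCGCCC and 2 to CCAAT, where the median over 32851 windows was 52.7%. Among all windows, 35.7% held CCGCCC, 37.4% CCAAT, 16.3% AGGTCA, 13.6% TATAAA and 1.79% TGACGTCA. None of these 3 windows held the half-site, the TATA box or the cAMP response element. Of the 7 genes, 5 had 8 windows in all, and the half-site was found in 1 of them, a start region of St6gal1. These are matches of letters and say nothing of whether a factor binds.

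Of the other members, St3gal5 lies on chromosome 6 from 72097592 to 72154571 and St6gal1, like St3gal6, on chromosome 16, from 23224740 to 23360350. St3gal1 is on chromosome 15, St3gal2 on chromosome 8, St3gal3 on chromosome 4 and St3gal4 on chromosome 9.

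St3gal6 was low in the libraries labelled Cre- and high in those labelled BATdKO. Levels are CPM on library sizes normalized by TMM. The kit makes a tag near the 3′ end, so long transcripts do not gather more counts. Levels of different genes are set side by side on that basis, though other differences in counting, such as shared exons, remain. At 8°C, St3gal6 had 2.51, 4.69 and 6.07 CPM (lowest, median and highest of 6) under the Cre- label. Under the BATdKO label it had 20.8, 28.8 and 51.8 CPM. The groups at 8°C did not overlap, as was true in this direction of 1.07% of all tested genes. The log2 fold change was 2.71 (SE 0.50), or 6.54-fold, the 3rd highest of 12485 genes, and it was 2.55 to 2.82 when any 1 mouse was left out. The rule used this contrast, and in bulk RNA more cells of a type and more RNA per cell cannot be told apart.

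**Figure D1:**
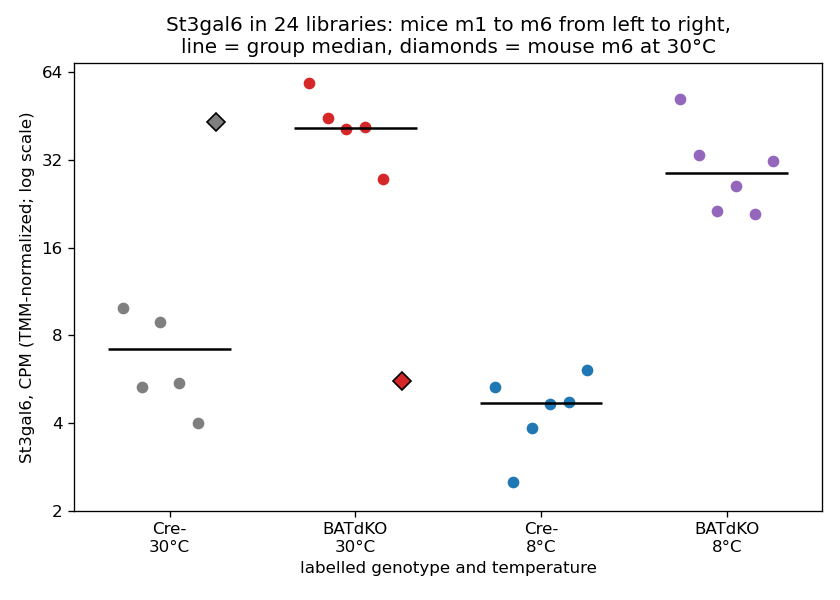
St3gal6 in CPM (log scale) in each of the 24 libraries by labelled genotype and temperature, with mice m1 to m6 from left to right and the group median as a line. At 8°C the 6 BATdKO libraries (20.8 to 51.8) lie above the 6 Cre- libraries (2.51 to 6.07), and at 30°C both mice m6 (diamonds, 43.1 and 5.56) lie in the range of the other label.

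At 30°C the same order of labels was seen in all but those 2 mice. Under the Cre- label St3gal6 had 4.00, 7.19 and 43.1 CPM, and under the BATdKO label 5.56, 41.2 and 58.7 CPM. The extremes of 43.1 and 5.56 CPM are both mice m6. The other 5 Cre- libraries had at most 9.92 CPM and the other 5 BATdKO libraries at least 27.6 CPM. The log2 fold change was 1.38 (SE 0.44) with all libraries and 2.58 (SE 0.25) without both mice m6. Without them the groups at 30°C did not overlap, as was true in this direction of 2.02% of all tested genes. Both mice were left out after their St3gal6 levels were seen. The lack of overlap and the larger fold change therefore follow in part from that choice. No such choice was made for each of the other genes, so their share is not a like yardstick.

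The lower level in the cold rested in large part on mouse m6 labelled Cre-. In the libraries labelled Cre-, St3gal6 fell by 1.61 on the log2 scale from 30°C to 8°C (SE 0.52), and the ranges of 4.00 to 43.1 and 2.51 to 6.07 CPM overlapped. Without both mice m6 the log2 fold change was -0.63 (SE 0.28). In the libraries labelled BATdKO it was -0.28 (SE 0.42) with all mice and -0.52 (SE 0.21) without both mice m6. The difference between the genotype effects at the 2 temperatures was 1.33 on the log2 scale (SE 0.67) with all mice and 0.11 (SE 0.35) without both mice m6.

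Ordered by median, St3gal6 ran from BATdKO at 30°C (41.2 CPM) through BATdKO at 8°C (28.8 CPM) and Cre- at 30°C (7.19 CPM) to Cre- at 8°C (4.69 CPM). Neighbouring groups overlapped at each step. Between BATdKO at 8°C and Cre- at 30°C the overlap came from mouse m6 labelled Cre- alone, since the next highest library of that group had 9.92 CPM.

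The last exon annotated for St3gal6 reaches into the last exon of Dcbld2 (a transmembrane protein) on the opposite strand, and whether reads were counted by strand is not given. How reads of this stretch were assigned to the 2 genes is therefore not known. Dcbld2 itself had between 0.669 and 5.99 CPM over the 24 libraries. Its log2 fold change between labels at 8°C was 1.00 (SE 0.31, adjusted p = 0.142 in edgeR). For cold in the libraries labelled Cre- it was -1.13 (SE 0.29, adjusted p = 0.0184 in edgeR), which passed, as did 9.15% of all tested genes. Dcbld2 did not pass in the other contrasts. Across libraries it correlated with St3gal6 with r = 0.62 (n = 24, given as a description). The part of Dcbld2 reads in the counts of St3gal6 was not tested. St3gal4 and St6gal1 also share exon sequence with another gene on the other strand, and no member shares any on its own strand.

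St3gal5 was the most abundant member in every library. It had a mean of 96.5 ± 9.45 CPM (SD, n = 24), from 77.7 to 110 CPM. St3gal1 followed with 22.6 ± 4.28 CPM and St3gal3 with 14.9 ± 1.82 CPM. St6gal1 had 6.69 ± 2.52 CPM and St3gal4 had 5.40 ± 1.65 CPM. St3gal2 was lowest with 2.68 ± 1.10 CPM and 1 to 65 counts a library, so that its values carry the widest counting error.

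The place of St3gal6 in this order changed with the label. In the libraries labelled Cre- at 8°C it ranked 5th or 6th of the 7 (a tie with rank 5.5 included) and made up 1.56% to 3.65% of their summed CPM. In those labelled BATdKO at 8°C it ranked 2nd in 5 of 6 and 3rd in the other, with 12.5% to 27.0% of the sum. At 30°C it ranked 2nd in 5 of 6 libraries labelled BATdKO and in 1 of 6 labelled Cre-, the exceptions being both mice m6. St3gal6 was above St3gal1 in 5 of 6, 0 of 6, 5 of 6 and 1 of 6 libraries of BATdKO 8°C, Cre- 8°C, BATdKO 30°C and Cre- 30°C.

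The summed CPM of all 7 genes had a median of 191 in the libraries labelled BATdKO at 8°C and of 161 in those labelled Cre-, with overlapping ranges of 160 to 199 and 147 to 167. Without St3gal6 the medians were 157 and 158.

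**Figure D2:**
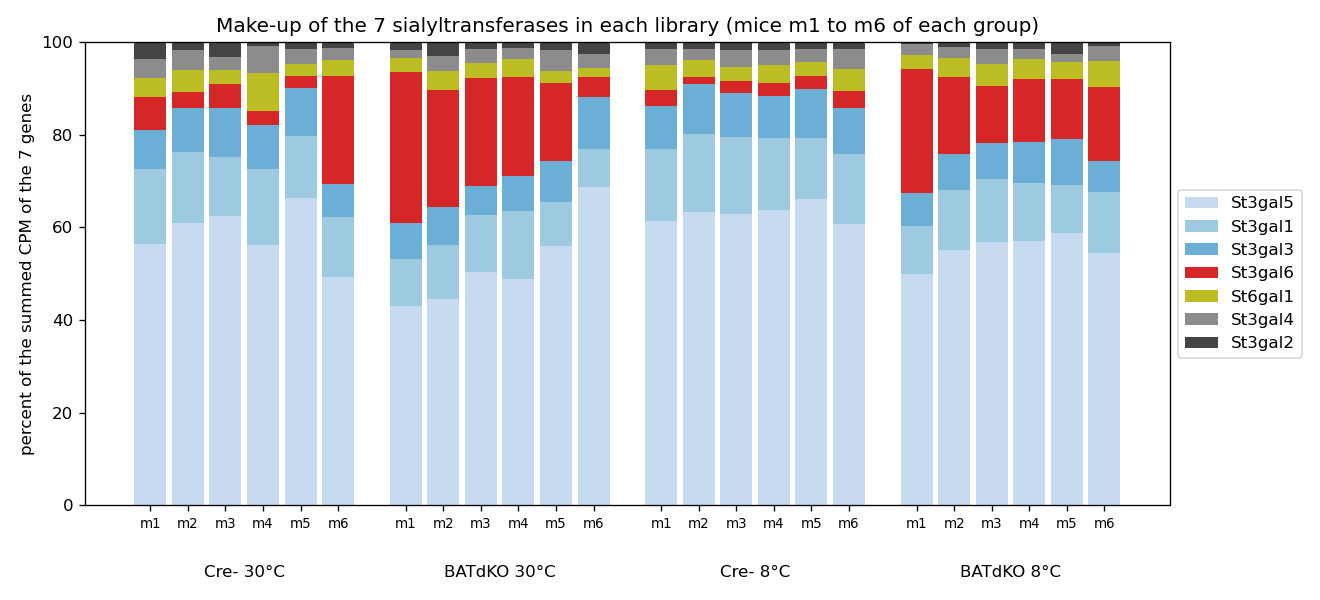
Share of each gene in the summed CPM of the 7 sialyltransferases, 1 bar for each library, mice m1 to m6 of each group from left to right. St3gal5 is the tallest block of every bar, and St3gal6 (red) takes 12.5% to 27.0% under the BATdKO label at 8°C and 1.56% to 3.65% under the Cre- label.

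The other 6 genes did not pass the test at 8°C. In edgeR's quasi-likelihood test 0 of 6 passed the adjusted threshold of 0.1 for BATdKO against Cre-, where 1.82% of all tested genes did. At an unadjusted p under 0.05 the count was also 0, against 9.24% of all genes, and with DESeq2 it was 0. Their log2 fold changes ran from -0.15 (St3gal4) to 0.33 (St6gal1), with a median of -0.10 against 0.00 for all genes, and the groups overlapped in all 6, where 1.95% of all genes had groups that did not. For St3gal5 the interval was narrow, from -0.13 to 0.18 (95% confidence interval), which leaves out a change of the size seen in St3gal6. St3gal2 had the widest interval below zero, to -0.72, and St6gal1 the highest bound, 0.81.

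St3gal5, the GM3 synthase gene, had 93.9, 103 and 110 CPM (lowest, median and highest) under the BATdKO label at 8°C and 92.8, 101 and 110 CPM under the Cre- label, a log2 fold change of 0.03 (SE 0.07). Cold in the libraries labelled BATdKO was the sole contrast in which a tested member passed the threshold, and that member was St3gal5. At 30°C it had 77.7, 89.1 and 95.0 CPM, so that the ranges overlapped slightly. The log2 fold change was 0.23 (SE 0.08, adjusted p = 0.0764 in edgeR), which made 1 of 6 members called against 7.07% of all tested genes. With St6gal1, 2 of 6 had an unadjusted p under 0.05, against 17.2% of all genes.

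This small rise of St3gal5 was near the threshold. It was called in 13 of the 24 fits that left out 1 mouse, with adjusted p from 0.0584 to 0.217, and was not called without both mice m6 (adjusted p = 0.108). On library totals without TMM factors its log2 fold change was 0.04 (adjusted p = 0.768). That scaling moved the median of all genes to -0.19 in this contrast and to -0.20 for cold in the libraries labelled Cre-, and relative to the median St3gal5 was again 0.23 higher. In the libraries labelled Cre-, St3gal5 had a log2 fold change of 0.07 in the cold (SE 0.08, adjusted p = 0.701). The test of the difference between genotypes gave 0.17 (SE 0.11, adjusted p = 0.719).

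St6gal1, which can use the same acceptors as St3gal6, had 5.66, 7.99 and 11.0 CPM under the BATdKO label at 8°C and 2.55, 5.66 and 7.81 CPM at 30°C. Its log2 fold change in the cold was 0.48 (SE 0.23, unadjusted p = 0.0467, adjusted p = 0.281 in edgeR) and 0.33 (SE 0.21) without both mice m6, of which the one labelled BATdKO held the lowest value of all 24. Under the Cre- label it had 4.60, 6.01 and 8.03 CPM at 8°C and 4.14, 6.17 and 15.0 CPM at 30°C. The 15.0 CPM came from 11 counts in the shallowest library. St6gal1 is known to be abundant in liver and in B cells. The 2 counted of 7 B cell markers, Ighm and Igkc, summed to 28.8 to 44.6 CPM under the BATdKO label at 8°C and to 19.0 to 23.5 CPM under the Cre- label. Over the 24 libraries St6gal1 correlated with this sum with r = 0.06, with the hepatocyte sum with r = 0.59 and with the sum of 8 of 8 macrophage markers with r = -0.56, as descriptions. The part of these cell types in the values of St6gal1 was not tested.

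St3gal1, which caps O-glycans, had 16.6, 23.6 and 26.0 CPM under the BATdKO label at 8°C and 22.3, 24.6 and 27.3 CPM under the Cre- label. At 30°C it had 10.7, 19.4 and 28.6 CPM under the BATdKO label and 20.7, 23.5 and 30.1 CPM under the Cre- label. The lowest value of 10.7 CPM was again mouse m6. Its log2 fold change between labels at 30°C was -0.25 (SE 0.15, adjusted p = 0.607 in edgeR).

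St3gal3, St3gal4 and St3gal2 were not called in any contrast. St3gal3 had group medians between 14.4 and 15.6 CPM. St3gal4, which shares the sialyl Lewis X role with St3gal6, had group medians between 4.70 and 5.47 CPM and log2 fold changes between labels of -0.15 (SE 0.21) at 8°C and -0.14 (SE 0.20) at 30°C. St3gal2 had group medians between 2.09 and 2.66 CPM, with log2 fold changes in the cold of -0.48 (SE 0.27, adjusted p = 0.362 in edgeR) under the Cre- label and -0.44 (SE 0.29, adjusted p = 0.458) under the BATdKO label. Its highest levels, 5.14 and 5.12 CPM, were in mice m3 and m1 labelled Cre- at 30°C. They also had the highest sums of skeletal muscle markers (7332 and 3191 CPM). Mouse m5 labelled Cre- at 8°C had 1381 CPM of these markers and 2.36 CPM of St3gal2. Mouse m2 labelled BATdKO at 30°C had 568 CPM of the markers and 5.01 CPM of St3gal2. Without mouse m1 labelled Cre- at 30°C the value under the Cre- label was -0.27. The part of muscle in St3gal2 was not tested.

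**Figure D3:**
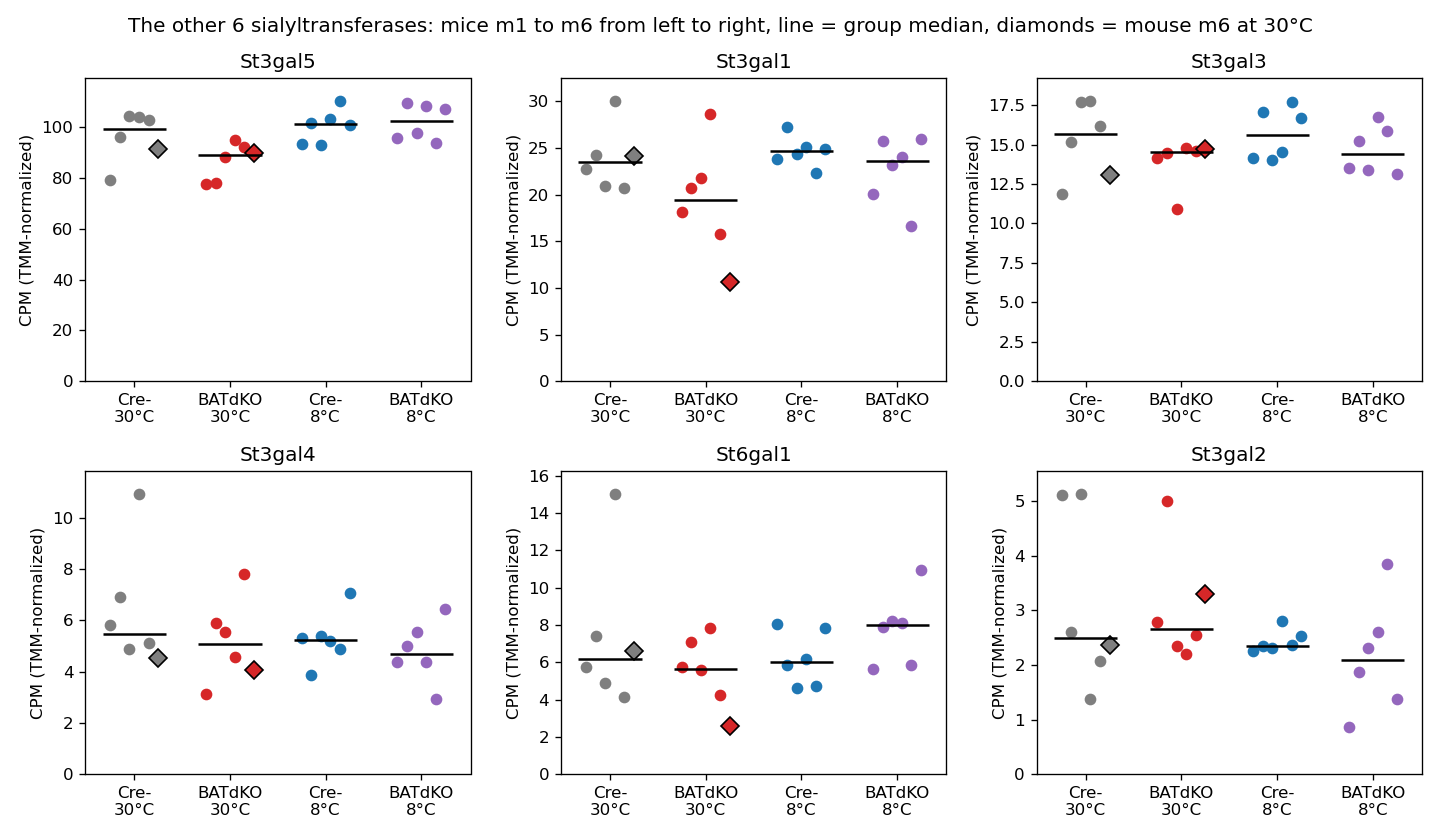
CPM of the other 6 sialyltransferases in each library, with mice m1 to m6 of each group from left to right, the group median as a line and an axis from 0 in each panel. The groups overlap in every panel, and the libraries labelled BATdKO at 30°C reach lowest in St3gal5 (77.7) and, through mouse m6 (diamond), in St3gal1 (10.7).

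In the remaining contrasts 0 of the 6 genes were called by edgeR, and 0 by DESeq2 or at an unadjusted p under 0.05. For cold in the libraries labelled Cre-, 9.15% of all tested genes were called and 18.6% had an unadjusted p under 0.05. The members ran from -0.48 (St3gal2) to 0.09 (St3gal1) on the log2 scale, with a median of 0.04 against -0.02 for all genes. For genotype at 30°C the share of all genes called was 0%, with 10.4% at an unadjusted p under 0.05, and all 6 members had values below zero, from -0.25 (St3gal1) to -0.09 (St3gal3). Without both mice m6, St6gal1 was 0.06 there. For the difference of the genotype effects 0.0961% of all genes were called and 8.05% had an unadjusted p under 0.05, and the members ran from -0.01 (St3gal4) to 0.46 (St6gal1).

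**Figure D4:**
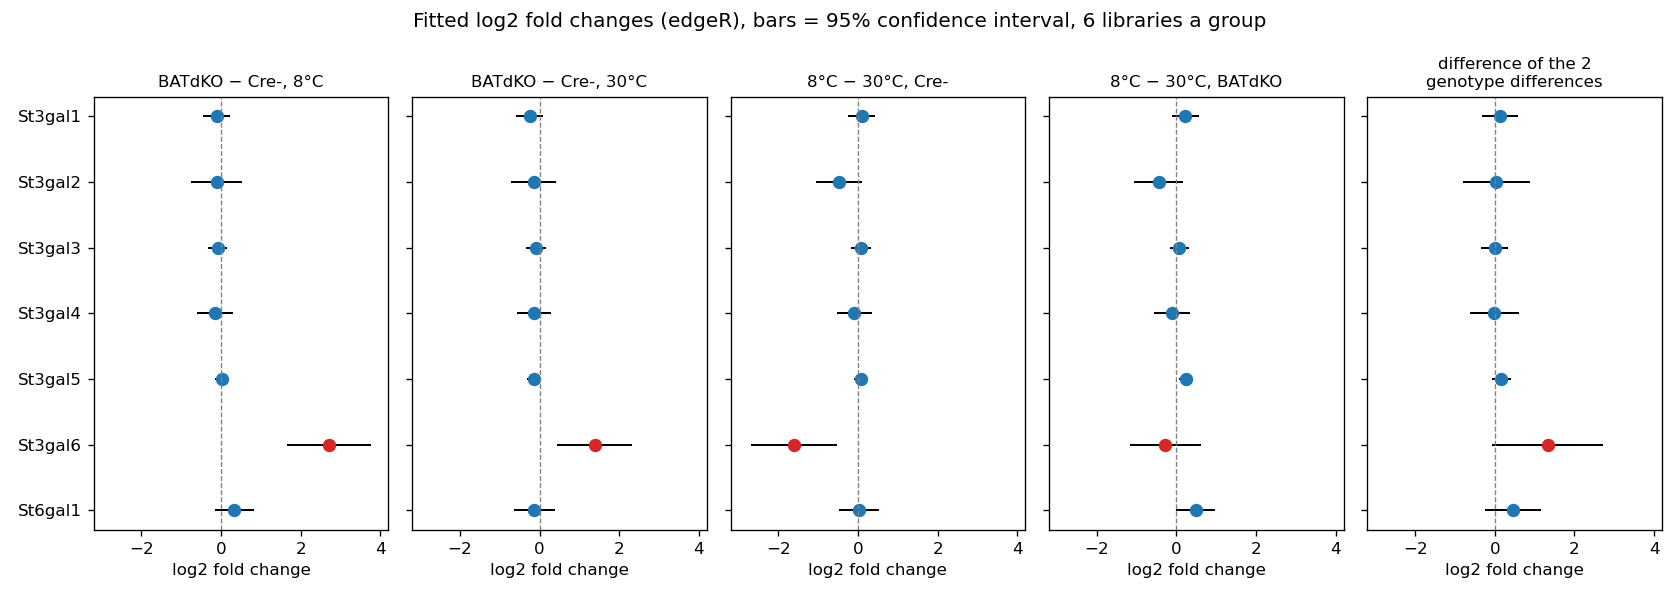
Fitted log2 fold changes of the 7 genes in each contrast, with 95% confidence intervals as bars. St3gal6 was selected on these levels, so its bars describe the spread and are not a test. St3gal6 (red) is at 2.71 and 1.38 for BATdKO against Cre- at 8°C and 30°C and at -1.61 for cold in Cre-, while the other genes (blue) lie between -0.48 and 0.48.

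Among themselves the 7 genes did not move as one. Over the 24 libraries the closest pair was St3gal1 and St6gal1, with r = 0.76 of log2 CPM, and 0.81 after the group means were taken off. St3gal3 and St3gal5 followed with r = 0.58. St3gal6 correlated with the others between -0.48 (St3gal3) and 0.19 (St6gal1). These are descriptions over libraries that share depth and tissue composition.

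The genes whose pattern was most like that of St3gal6 came from outside the family. By r of log2 CPM over 24 libraries they were Elmod2 (a GTPase-activating protein of ARF GTPases, r = 0.93), Ncor1 (the corepressor to which TBL1 and TBLR1 bind, r = 0.93), Tenm4 (a teneurin, r = 0.91), Col4a1 (a chain of basement membrane collagen, r = 0.88) and Zfp703 (a zinc finger protein, r = 0.88). The same 5 genes led over the 22 libraries without both mice m6. St3gal6 was selected on its difference between labels, so r over all libraries ranks high the genes that share this difference. The coefficients are descriptions. Both deleted genes, Tbl1xr1 and Tbl1x, had r = 0.86 over the 24 libraries. Ncor1 had medians of 254 CPM under the BATdKO label at 8°C and 212 CPM under the Cre- label. By Spearman's rho the order was Svep1, Ncor1, Tenm4, Col4a1 and Elmod2, so that 4 of the 5 were shared. Elmod2 had 28.4, 33.6 and 99.8 CPM under the BATdKO label at 8°C and 7.29, 8.81 and 13.8 CPM under the Cre- label. At 30°C mouse m6 labelled Cre- had 30.4 CPM of Elmod2 and mouse m6 labelled BATdKO 12.2 CPM, each in the range of the other label as in St3gal6. By annotation Elmod2 is the neighbour of Ucp1 on chromosome 8, with 14179 bases and 0 genes between them.

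With each group's mean taken off, the leading genes were Cidec (a lipid droplet protein, r = 0.89), Lpl (lipoprotein lipase, r = 0.87), Nabp1 (r = 0.87), Dusp4 (a phosphatase of MAP kinases, r = 0.87) and Elmod2 (r = 0.86). This ranking rested on both mice m6, since 0 of the 5 led over the other 22 libraries. Over those 22 the coefficient within groups was 0.74 for Lpl, 0.68 for Tenm4 and 0.66 for Elmod2. It was lower for the other genes named above, at 0.58 for Cidec, 0.55 for Col4a1 and 0.47 for Dusp4. Ncor1 had 0.46, Nabp1 0.42 and Zfp703 0.20.

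Marker sums also differed between libraries along with St3gal6. The brown adipocyte sum was 665 to 4188 CPM in Cre- and 1219 to 4091 CPM in BATdKO libraries at 30°C, and 2576 to 4779 CPM in Cre- and 2937 to 5710 CPM in BATdKO libraries at 8°C. The highest of Cre- at 30°C and the lowest of BATdKO at 30°C were both mice m6. At 8°C these sums overlapped between labels, and 0 of 10 markers were called by edgeR, where 1.82% of all tested genes were. Over the 24 libraries the brown adipocyte sum correlated with St3gal6 with r = 0.45. The 2 counted of 5 Schwann cell markers, Mbp and S100b, ran the other way, at 33.9 to 61.4 CPM in Cre- and 13.5 to 21.7 CPM in BATdKO libraries at 8°C (r = -0.73 to St3gal6). These sums did not overlap, and 1 of the 2 markers was called lower. The B cell sum given above did not overlap between labels at 8°C, with 1 of its 2 markers called higher and r = 0.46 to St3gal6. In this contrast 1.82% of all tested genes were called. Taken as single genes, 1.95% had groups that did not overlap. The hepatocyte sum overlapped between all groups, with r = -0.07 to St3gal6. The sums for macrophages, endothelium, T cells, progenitors and stroma, smooth muscle and skeletal muscle had r of -0.26 to 0.23 to St3gal6. The part of these cell types in the levels of St3gal6 was not tested.

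**Figure D5:**
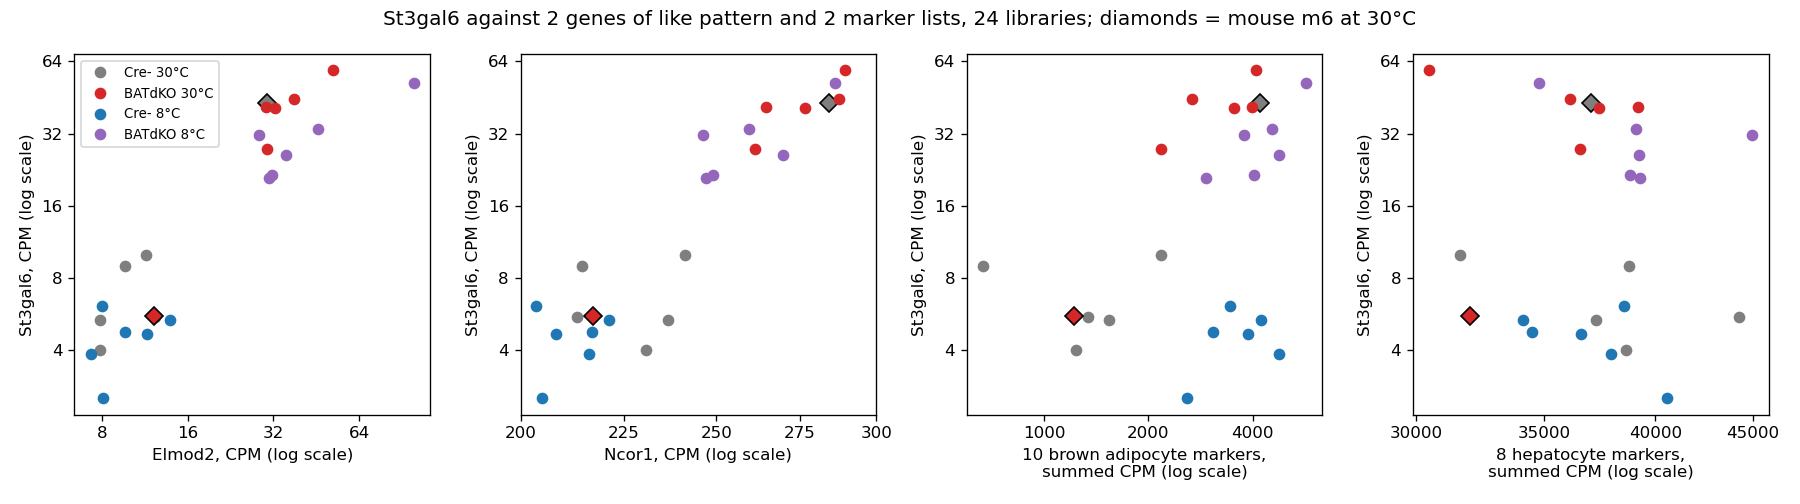
St3gal6 (CPM, log scale) against Elmod2, Ncor1, the summed 10 brown adipocyte markers and the summed 8 hepatocyte markers in the 24 libraries, each axis on a log scale, with colours for the groups and diamonds for mouse m6 at 30°C. Elmod2 and Ncor1 rise with St3gal6 (r = 0.93 each, given as a description). The Cre- libraries at 8°C have 2576 to 4779 CPM of brown adipocyte markers at low St3gal6.

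The other genes of sialic acid metabolism were counted in the same way. Of 78 genes listed for supply of the sugar donor, its removal and modification, acceptor synthesis, gangliosides, sialyl Lewis X and readers of sialic acid, and other sialyltransferases, 36 were tested. For BATdKO against Cre- at 8°C, 0 of 36 were called by edgeR (1.82% of all tested genes) and 2 had an unadjusted p under 0.05 (9.24% of all), with a median log2 fold change of -0.03. The 5 tested genes that supply CMP-sialic acid had a median of -0.01, and the 3 tested of 13 other sialyltransferases one of -0.36. Cold in the libraries labelled Cre- gave 0 of 36 (9.15% of all genes), with 1 at an unadjusted p under 0.05 (18.6% of all). Genotype at 30°C gave 0 of 36 (0% of all genes), with 2 at an unadjusted p under 0.05 (10.4% of all).

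For cold in the libraries labelled BATdKO, 2 of 36 passed, against 7.07% of all tested genes. Psap, the precursor of the saposins that help break down glycosphingolipids, had 288, 403 and 502 CPM at 30°C and 404, 556 and 613 CPM at 8°C. Its log2 fold change was 0.42 (SE 0.13, adjusted p = 0.0683 in edgeR), and it was called in 17 of the 24 fits that left out 1 mouse but not without both mice m6 (adjusted p = 0.143) or on library totals (adjusted p = 0.193). B3galt2, a galactosyltransferase that makes an acceptor end, had 3.91, 4.88 and 10.7 CPM at 30°C and 2.54, 3.00 and 4.87 CPM at 8°C. It fell by 0.99 on the log2 scale (SE 0.33, adjusted p = 0.0917 in edgeR), was called in 15 of those 24 fits but not with robust dispersion (adjusted p = 0.110), and shares exon sequence with Cdc73 on the other strand. None of the 9 listed readers of sialic acid was found by symbol among the 12615 genes counted, so none could be tested.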

How the data were processed

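Total RNA of the tissue labelled BAT was extracted with a column kit and sequenced with the QuantSeq 3′ FWD kit. The authors aligned the reads to GRCm38 and deposited the raw, unscaled counts of each gene. Per the labels the submitters used DESeq2. The annotation release, strand setting and low-count filter are not given in the sources used here. The study removed outliers it does not name, so all 24 libraries were used. No 2 libraries were identical. Replicates are separate mice.

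Symbols were matched for 12608 of 12615 genes. Counts were fitted in R 4.3.3 with edgeR 4.0.16 (TMM, filterByExpr, quasi-likelihood, 1 mean a group, 12485 genes kept and 130 removed). P-values were adjusted by Benjamini-Hochberg over all tested genes, with the study's threshold of 0.1. SEs were derived from the F statistic. Log2 CPM used a prior count of 2. In simulated data for genotype at 8°C (12417 genes, log2 fold change 1) edgeR recovered 172 of 200 changed genes and called 13 unchanged genes. Smaller changes were not simulated. Promoter windows are from RefSeq (GRCm38.p6).

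The 7 genes and all lists were chosen with earlier results of these data known. Named genes were the 7 members, both deleted genes, listed pathway genes past the threshold and the 5 genes most like St3gal6 by each measure. Dcbld2, Alb and Ucp1 were added after their values were seen. Alternatives were DESeq2 1.42.0, RLE, other filters, robust dispersion, fewer groups and leaving out mice. Leaving out both mice m6 and scaling by library totals were chosen after seeing the data.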

Additional observations from a re-analysis of the deposited data

Results flagged for a closer look

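In 4 of 28 groups of 6 libraries 1 value stood apart by Dixon's test at 95%, where chance gives about 1 group in 20. St3gal6 under the Cre- label at 30°C had 43.1 CPM in mouse m6 (419 counts), and the next highest library had 9.92 CPM. St3gal4 and St6gal1 under the same label at 30°C had 10.9 and 15.0 CPM in mouse m4, the shallowest library, from 8 and 11 counts. St3gal3 under the BATdKO label at 30°C had 10.9 CPM in mouse m3, below the next lowest at 14.1 CPM.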

How the results depend on the processing

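Values and counts of the 7 genes not named here kept their direction and their side of the threshold under every alternative run. With DESeq2 the genes called over the whole table were 90 for genotype at 30°C (0 with edgeR) and 51 for the difference of genotype effects (12 with edgeR; 27 on library totals, 21 with robust dispersion and 44 without both mice m6). Without both mice m6, 500 genes were called for genotype at 30°C, and St3gal6 was -0.63 for cold in Cre-, 2.58 for genotype at 30°C and 0.11 for the difference of effects. Fitting just the groups compared gave 477 genes for genotype at 8°C (227 with all groups), and library totals gave 3259 for cold in Cre- (1143 with TMM) and 2812 for cold in BATdKO (883 with TMM).

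St3gal5, the 1 tested member called for cold in BATdKO, left 0 called on just the groups compared (0.23, adjusted p = 0.119 in edgeR), without both mice m6 and on library totals. Values of uncalled members that changed sign were small: St6gal1 for cold in Cre- with DESeq2 (-0.0082). On library totals they were St3gal5 for genotype at 8°C (-0.041), St3gal1, St3gal3, St3gal5 and St6gal1 for cold in Cre- (-0.083, -0.10, -0.10 and -0.16) and St3gal3 for cold in BATdKO (-0.11). Without both mice m6 they were St6gal1 for genotype at 30°C (0.055) and St3gal1 and St3gal3 for the difference of effects (-0.016 and 0.046). In all, 48 of 954 single-gene values changed sign in 32 fits, none past the threshold, and the largest was 0.21 in size. The mean of St3gal5 in BATdKO at 8°C was 93.8 CPM on library totals. The causes were not tested.

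Leaving out 1 mouse at a time gave 138 (without BATdKO 8°C m5) to 276 genes for genotype at 8°C, 791 to 1343 for cold in Cre-, 0 to 369 (without Cre- 30°C m6) for genotype at 30°C, 574 (without BATdKO 8°C m4) to 1069 for cold in BATdKO and 7 to 37 (without Cre- 8°C m2) for the difference of effects. The called members for cold in BATdKO were 0 to 1. St3gal6 ran from -1.81 to -0.62 for cold in Cre-, 1.18 to 2.37 for genotype at 30°C and 0.34 to 1.53 for the difference, each at one end without Cre- 30°C m6. Ranges across zero were -0.082 to 0.11 (St6gal1, cold in Cre-), -0.38 to 0.069 (St3gal2) and -0.27 to 0.023 (St6gal1) for genotype at 30°C, -0.21 to 0.021 (St3gal4, cold in BATdKO), and for the difference -0.21 to 0.27 (St3gal2), -0.074 to 0.065 (St3gal3) and -0.12 to 0.12 (St3gal4). No paired analysis was possible because the labels give mouse numbers that no 2 groups share. Depth limits St3gal2 most, with 1 count in 1 library.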
